A study of Mus musculus with 6 samples.

Results

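The genes described here are 40 genes that act in mitosis, the part of the cell cycle in which copied chromosomes are attached to a spindle and pulled apart. They were listed by name, and the rule does not use the difference between the groups. Each gene was read from the probe set that names it alone, or, where there were several, from the probe set with the highest mean over the 6 arrays. By this rule 39 of the 40 were measured, among 19938 genes in all. Ccnb1, which encodes a cyclin partner of Cdk1, was not analysed here. Only Top2a had a further probe set.

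A dividing cell enters mitosis when cyclins switch on the kinase Cdk1. Kinetochores, built on the centromeres, then catch spindle microtubules, and the spindle checkpoint holds the anaphase-promoting complex (APC/C) back until every chromosome is attached. Most of these genes are transcribed in waves that peak in G2 and mitosis, so in a cell population their RNA tracks the share of cells that are dividing. T cells that meet foreign antigen divide fast, and rapamycin is known to slow their growth and division by inhibiting the kinase mTOR.

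RNA was taken from splenic T cells of 6 mice, each hybridised to its own whole-transcript array. All 6 were lethally irradiated B6D2F1/J recipients that had been given T cell-depleted bone marrow of B6 mice, an allogeneic parent-into-F1 transplant. Spleen cells of B6 mice were added to the graft in only some recipients of the protocol, and it is not stated whether any of these 6 mice got them. The groups were 3 mice injected intraperitoneally with rapamycin at 1.5 mg/kg every other day up to day 10 and 3 injected with phosphate-buffered saline (PBS). CD3+ cells were sorted by flow cytometry on day 10. Age, sex and the donor origin of the sorted cells are not given in the labels used here. The mice are called biological replicates in their titles.

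Levels are in log2 units, and every difference is rapamycin minus PBS, so that a difference of -1 would be a level lower by a factor of 2. Array medians lay between 6.03 and 6.17, and the lowest value of any mitosis gene on any array was 7.67. Detection calls were not used here. Cd3e, a chain of the T cell receptor complex that defines the sort, measured 12.82 to 12.92 with PBS and 12.78 to 12.92 with rapamycin. The B cell marker Ms4a1 measured 3.68 to 4.12 over all arrays, below the array medians. Cd79b, another B cell gene, lay above them, at 7.16 to 7.56 with PBS and 6.80 to 6.89 with rapamycin. Genes of granulocyte precursors and neutrophils were also present in the sorted samples, and their values are given beside the results with which their mean moves. The precision is limited by 3 arrays a group: the median standard error of a difference was 0.0862 for the mitosis genes and 0.0955 over all genes.

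The comparison asked whether transcripts of the mitotic machinery differ in splenic T cells when the recipient is given rapamycin. The mitosis genes measured slightly lower with rapamycin almost throughout, but no single gene passed the test. The differences were negative for 37 of 39 genes, against 55.3% of all genes tested. These genes varied together between mice, so their signs are not 39 separate observations. Within the PBS group, mouse 1 exceeded mouse 3 in 38 of the 39. The mean over the 39 genes was 9.75 ± 0.08 with PBS and 9.66 ± 0.07 with rapamycin (SD, n = 3 each). The median difference of the mitosis genes was -0.08, a level 1.06-fold lower, where the median over all genes was -0.01. The differences ran from -0.23 for Plk1, the kinase that drives spindle assembly and mitotic exit, to 0.07 for Anln, an actin-binding protein of the cleavage furrow. Of the 39 genes, 0 passed an adjusted p of 0.05 in limma's test over all genes, where 0.00502% of all genes, or 1 gene, passed. At an unadjusted p of 0.05 there were 2 mitosis genes, Plk1 and Hmmr, or 5.13%, against 4.67% of all genes. Both were lower, and 3.07% of all genes passed in that direction. Shares this near the background give no result for single genes.

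The 39 genes were divided by whether the 3 values with rapamycin lay apart from the 3 with PBS. In 7 genes, or 17.9%, all rapamycin mice lay below all PBS mice, and in 0 genes above. Over all genes the groups did not overlap in 9.42%, and in 6.28% rapamycin was the lower group. The 7 were Plk1, Ccnb2, Hmmr, Kif20a, Tpx2, Kif4 and Nuf2. After quantile normalization only 3 of 39 did not overlap, a share below the 9.63% of all genes, so the excess over the background was lost in that setting. With arrays centred on their medians 5 of 39 did not overlap, against 8.26% of all genes. The 95% intervals, each taken alone, reached at most from -0.47 to 0.33, so a level lower by 1.5-fold or more, which is a difference of -0.58 or beyond, lay outside the interval of all 39 genes. In bulk RNA, fewer dividing cells and less transcript in each dividing cell cannot be told apart.

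**Figure D1:**
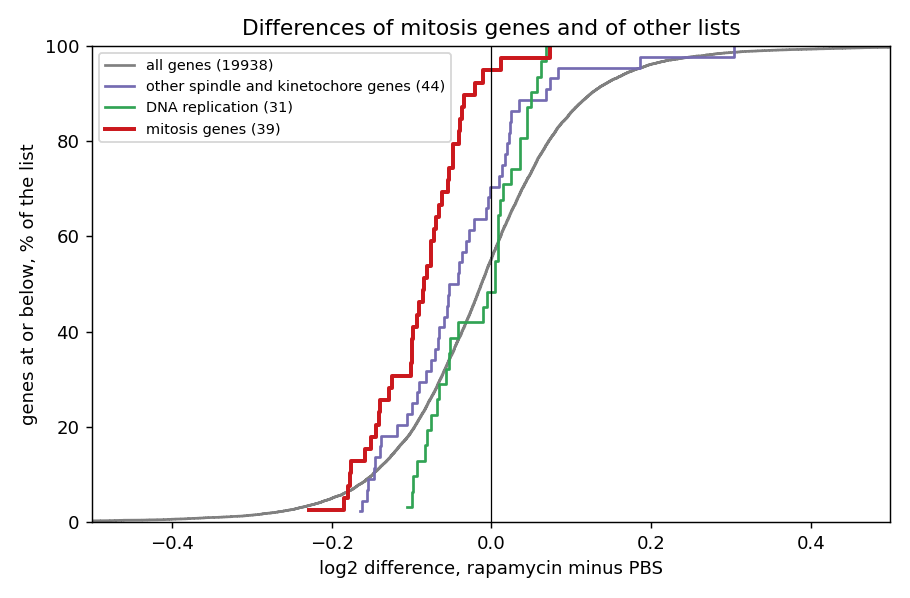
Cumulative share of genes (y axis, percent of each list) by log2 difference, rapamycin minus PBS (x axis), for 39 mitosis genes, 44 other spindle and kinetochore genes, 31 DNA replication genes and all 19938 genes, with the x axis ending at 0.5 on either side. The curve of the mitosis genes lies to the left, with 37 of 39 below 0, while 15 of 31 DNA replication genes lie below 0.

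Promoters of mitosis genes are known to carry a shared pair of elements. The cell cycle homology region binds the DREAM and MuvB complexes, which silence these genes in resting cells and activate them in G2, and CCAAT boxes upstream of it bind the activator NF-Y. The stretches below run from 120 bases before to 30 bases after an annotated transcription start (RefSeq, GRCm38.p6), 5′ to 3′ on the gene's strand. They show 5 of the 7 genes whose groups did not overlap, for which a promoter entry was matched, and Anln and Mad2l1, the 2 genes with positive differences. Capitals mark matches to the cell cycle homology region, searched as TTTGAA on either strand and as TTCGAA, and to CCAAT on either strand, which reads ATTGG on the other.
Plk1, chr7:122159315-122159464, plus strand: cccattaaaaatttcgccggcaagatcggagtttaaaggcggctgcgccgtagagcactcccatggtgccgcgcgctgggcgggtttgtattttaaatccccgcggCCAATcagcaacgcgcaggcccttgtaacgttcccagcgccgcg
Hmmr, chr11:40733408-40733557, minus strand: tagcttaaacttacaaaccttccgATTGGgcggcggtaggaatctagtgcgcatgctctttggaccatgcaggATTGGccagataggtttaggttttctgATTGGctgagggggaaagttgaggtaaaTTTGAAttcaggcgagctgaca
Ccnb2, chr9:70421525-70421674, minus strand: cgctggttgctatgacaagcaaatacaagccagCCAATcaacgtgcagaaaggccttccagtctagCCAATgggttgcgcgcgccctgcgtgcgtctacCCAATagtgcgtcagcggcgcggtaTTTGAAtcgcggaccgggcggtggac
Kif4, chrX:100625945-100626094, plus strand: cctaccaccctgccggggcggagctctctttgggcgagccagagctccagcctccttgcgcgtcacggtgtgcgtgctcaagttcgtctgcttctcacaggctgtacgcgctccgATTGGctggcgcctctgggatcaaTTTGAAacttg
Nuf2, chr1:169531435-169531584, minus strand: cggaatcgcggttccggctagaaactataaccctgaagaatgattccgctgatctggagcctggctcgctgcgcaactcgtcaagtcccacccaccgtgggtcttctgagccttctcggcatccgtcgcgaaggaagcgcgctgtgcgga
Anln, chr9:22389177-22389326, minus strand: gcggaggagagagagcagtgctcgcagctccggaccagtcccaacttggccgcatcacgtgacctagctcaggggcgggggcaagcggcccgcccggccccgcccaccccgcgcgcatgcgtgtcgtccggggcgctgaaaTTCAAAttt
Mad2l1, chr6:66535101-66535250, plus strand: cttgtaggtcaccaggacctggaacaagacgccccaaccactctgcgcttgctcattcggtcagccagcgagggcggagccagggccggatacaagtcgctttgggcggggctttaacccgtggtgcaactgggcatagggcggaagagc

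In Ccnb2 the 3 CCAAT matches began at -87, -54 and -21, counted from the transcription start with its first base as +1, and a cell cycle homology region match followed at position 5, with another farther upstream at -167. Hmmr had the same order, with the nearest CCAAT matches at -96, -47 and -20 and TTTGAA at position 9. In Kif4 they stood at -5 and 20, with a further CCAAT at -152. In Plk1 a CCAAT began at -14, and its TTTGAA, at position 31, lies just past the stretch shown. Anln had TTTGAA matches on both strands, at positions 22 and 29, and no CCAAT, and the second of these runs past the stretch. Nuf2 and Mad2l1 held neither set of letters in the whole window of 300 bases, which says nothing about the factors themselves.

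Promoter entries were matched for 32 of the 39 genes, in 35 windows of 250 bases before to 50 after a start, since 3 genes had a pair of starts. Aurkb, Ccna2, Cdc25c, Dlgap5, Foxm1, Kif20a and Tpx2 had no entry. The cell cycle homology letters were found in 80.0% of the mitosis windows and in 19.2% of all 32851 windows. Between -30 and 50, a range chosen after the positions had been seen, they were found in 68.6% and 4.14%. CCAAT stood in 77.1% against 37.4%, at least 2 copies of it in 57.1% against 11.7%, and both motifs in 71.4% against 7.52%. In 1 place the motifs overlapped. The other spindle and kinetochore genes held the cell cycle homology letters in 56.8% of 44 windows and the DNA replication genes in 20.7% of 29. In the same order, these lists held CCAAT in 72.7% and 58.6% of windows and both motifs in 43.2% and 17.2%. CCAAT was thus more frequent than in all windows in these lists too, and not only in the mitosis genes. Within the mitosis genes, the median difference was -0.09 for the 25 genes with a cell cycle homology match and -0.07 for the 7 without. These matches describe letters, not occupied sites, and no binding was measured.

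**Figure D2:**
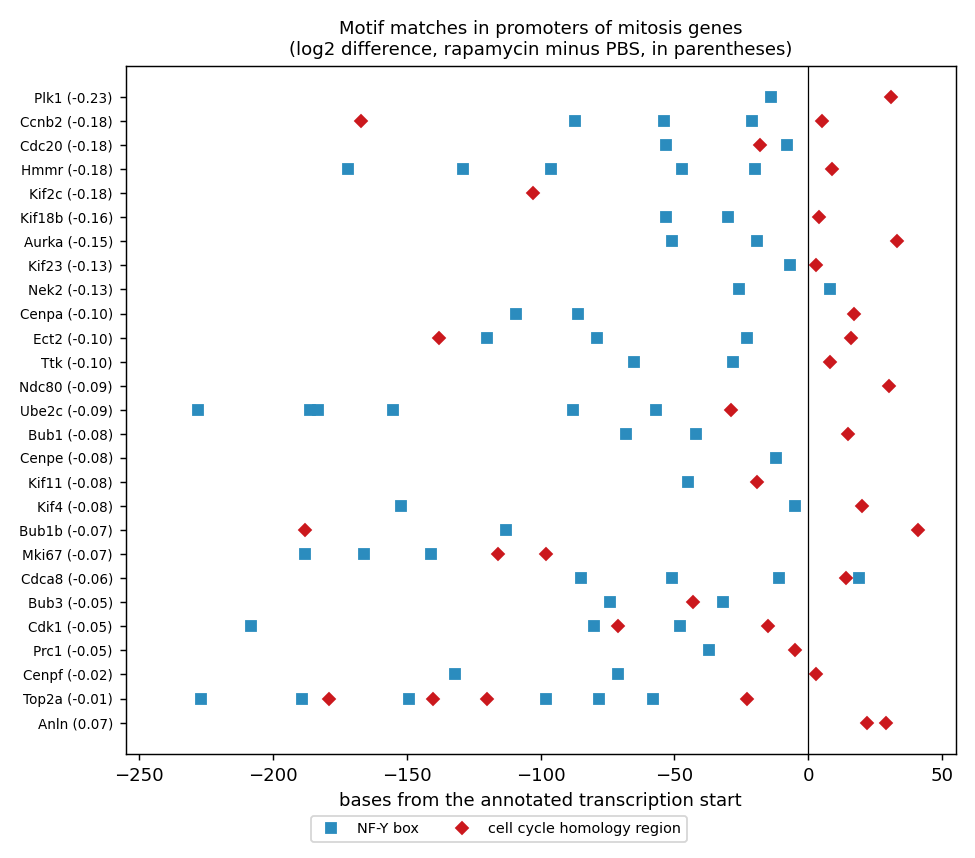
Positions of matches to the cell cycle homology region (diamonds) and to CCAAT, the NF-Y box (squares), in bases from the annotated transcription start (x axis), for mitosis genes with at least 1 match, in order of the log2 difference, rapamycin minus PBS, given in parentheses. Genes with a pair of starts are drawn at 1 of them. The diamonds gather near the start, and the squares lie mostly upstream of them, in genes at the top and at the bottom of the order alike.

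Cyclins, Cdk1 and the genes that activate them were lower in 6 of 6 measured, with a median difference of -0.05. Ccnb2 encodes cyclin B2, a partner of Cdk1. It measured 12.10, 11.91 and 12.01 in PBS mice 1 to 3 and 11.74, 11.82 and 11.90 in rapamycin mice 1 to 3. The groups did not overlap, but the highest rapamycin mouse lay just below the lowest PBS mouse. The difference was -0.18 (SE 0.08, 95% interval -0.38 to 0.01, unadjusted p = 0.0592, adjusted p = 1 in limma). Cdk1, the central mitotic kinase, measured 8.87, 8.78 and 8.73 with PBS and 8.77, 8.74 and 8.71 with rapamycin. Its groups overlapped, and the difference was -0.05 (SE 0.07). Cdc25c, the phosphatase that releases Cdk1 from inhibition, measured 7.96, 7.81 and 7.73 with PBS and 7.76, 7.67 and 7.80 with rapamycin, with overlap and a difference of -0.09. Ccna2, the cyclin of S phase and early mitosis, differed by -0.05. Foxm1, the transcription factor that activates many of these genes, differed by -0.04, as did the kinase gene Melk.

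All 7 mitotic kinases and chromosomal passenger genes measured lower, at a median of -0.10. Plk1 measured 11.30, 11.25 and 11.04 with PBS and 11.03, 10.90 and 10.98 with rapamycin. PBS mouse 3 stood 0.01 above rapamycin mouse 1, and the other mice of the groups were farther apart. The group means were 11.20 ± 0.14 and 10.97 ± 0.07 (SD, n = 3 each), and the difference of -0.23 (SE 0.09, 95% interval -0.44 to -0.02) had an unadjusted p of 0.0369 and an adjusted p of 1. Leaving out any of PBS mouse 1, PBS mouse 2, rapamycin mouse 2 and rapamycin mouse 3 took the unadjusted p to between 0.0702 and 0.13. Aurka, the kinase of spindle poles, measured 9.19, 9.20 and 8.98 with PBS and 9.14, 8.93 and 8.86 with rapamycin, a difference of -0.15 (SE 0.10). Rapamycin mouse 1 lay among the PBS mice for this gene. Nek2, a kinase of centrosome separation, differed by -0.13 (SE 0.15), Ttk, which recruits the spindle checkpoint, by -0.10, and Aurkb, the kinase of the chromosomal passenger complex, by -0.03. Its partners Birc5 (survivin) and Cdca8 (borealin) differed by -0.10 (SE 0.16) and -0.06. Birc5 had the largest standard error of the 39 genes, with values of 9.26 to 9.64 with PBS and 9.15 to 9.74 with rapamycin.

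Genes of the spindle checkpoint and of APC/C activation were lower in 5 of 6, with a median of -0.07. Cdc20, the subunit that the checkpoint holds back and that turns the APC/C on, measured 9.16, 9.13 and 9.03 with PBS. With rapamycin it measured 9.10, 8.81 and 8.89. Rapamycin mouse 1 lay inside the PBS range and the other two below it, and the difference was -0.18 (SE 0.09). Ube2c, the ubiquitin-conjugating enzyme of the APC/C, measured 10.02, 9.81 and 9.75 with PBS and 9.81, 9.80 and 9.70 with rapamycin. PBS mouse 1 stood above the other 5 mice, and the difference was -0.09 (SE 0.09). The checkpoint kinase Bub1 differed by -0.08, its relative Bub1b by -0.07 and their partner Bub3 by -0.05. Mad2l1, the checkpoint protein that binds Cdc20, had a difference of 0.01 (SE 0.09).

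Centromere and kinetochore genes were lower in 5 of 5, with a median of -0.08. Cenpa, the histone variant that marks the centromere, measured 10.63, 10.51 and 10.50 with PBS and 10.54, 10.38 and 10.41 with rapamycin, a difference of -0.10 (SE 0.08). Ndc80, the outer kinetochore protein that grips microtubules, measured 9.21, 9.14 and 9.05 with PBS and 9.07, 9.02 and 9.03 with rapamycin, a difference of -0.09. In both genes rapamycin mouse 1 lay above the lowest PBS mouse. Nuf2, the partner of Ndc80, measured 9.54 to 9.59 with PBS and 9.50 to 9.53 with rapamycin. Its groups did not overlap although the difference was only -0.04 (SE 0.07), as its values were close in every mouse. The kinetochore motor Cenpe differed by -0.08 and Cenpf, a large coiled-coil protein of the kinetochore, by -0.02.

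Kinesins and other spindle microtubule genes had negative differences in 8 of 8 and a median of -0.14, and 3 of the 7 genes without overlap belong here. Hmmr, a spindle-associated protein, measured 9.17, 9.06 and 9.05 with PBS and 8.88, 8.89 and 8.99 with rapamycin. All PBS mice stood above all rapamycin mice, and the difference was -0.18 (SE 0.08, unadjusted p = 0.0493, adjusted p = 1 in limma). Kif2c, a kinesin that shortens microtubules at the centromere, measured 9.71, 9.67 and 9.54 with PBS and 9.61, 9.35 and 9.41 with rapamycin. Rapamycin mouse 1 overlapped the PBS mice, and the difference was -0.18 (SE 0.09). Tpx2, which activates Aurka on the spindle, measured 9.97 to 10.13 with PBS and 9.85 to 9.93 with rapamycin, a difference of -0.14. Kif4, a kinesin of chromosome arms, measured 9.25 to 9.27 with PBS and 9.17 to 9.20 with rapamycin, a difference of -0.08. Neither overlapped between the groups. The platform also names a Kif4 pseudogene, and hybridisation of transcripts of a close copy to the same probes was not tested. The spindle kinesin Kif11 differed by -0.08, Kif18b, a kinesin of astral microtubules, by -0.16, and the microtubule binders Dlgap5 and Nusap1 by -0.14 and -0.07.

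Genes of cytokinesis were lower in 4 of 5, with a median of -0.10. Kif20a, a kinesin of the central spindle, measured 9.61, 9.50 and 9.56 with PBS and 9.41, 9.39 and 9.44 with rapamycin. The groups did not overlap, and the difference was -0.14 (SE 0.07). Kif23, the kinesin that bundles the spindle midzone, measured 9.95, 9.85 and 9.76 with PBS and 9.82, 9.64 and 9.71 with rapamycin, with overlap and a difference of -0.13. Ect2, the exchange factor that starts furrow contraction, differed by -0.10 and the midzone bundler Prc1 by -0.05. Anln measured 8.92, 8.83 and 8.60 with PBS and 9.01, 8.75 and 8.81 with rapamycin, a difference of 0.07 (SE 0.11).

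Mki67, whose product coats mitotic chromosomes and is the usual stain for dividing cells, measured 11.80, 11.83 and 11.67 with PBS and 11.80, 11.61 and 11.68 with rapamycin. The groups overlapped, and the difference was -0.07 (SE 0.09, 95% interval -0.27 to 0.13). Top2a, the topoisomerase that untangles sister chromosomes, measured 11.10, 11.15 and 11.01 with PBS and 11.23, 11.05 and 10.94 with rapamycin. Rapamycin mouse 1 was the highest and rapamycin mouse 3 the lowest of the 6, and the difference was -0.01 (SE 0.09). Its direction turned without PBS mouse 2, rapamycin mouse 2 or rapamycin mouse 3, and when arrays were centred on their medians. The further Top2a probe set had a difference of -0.13 (unadjusted p = 0.312).

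**Figure D3:**
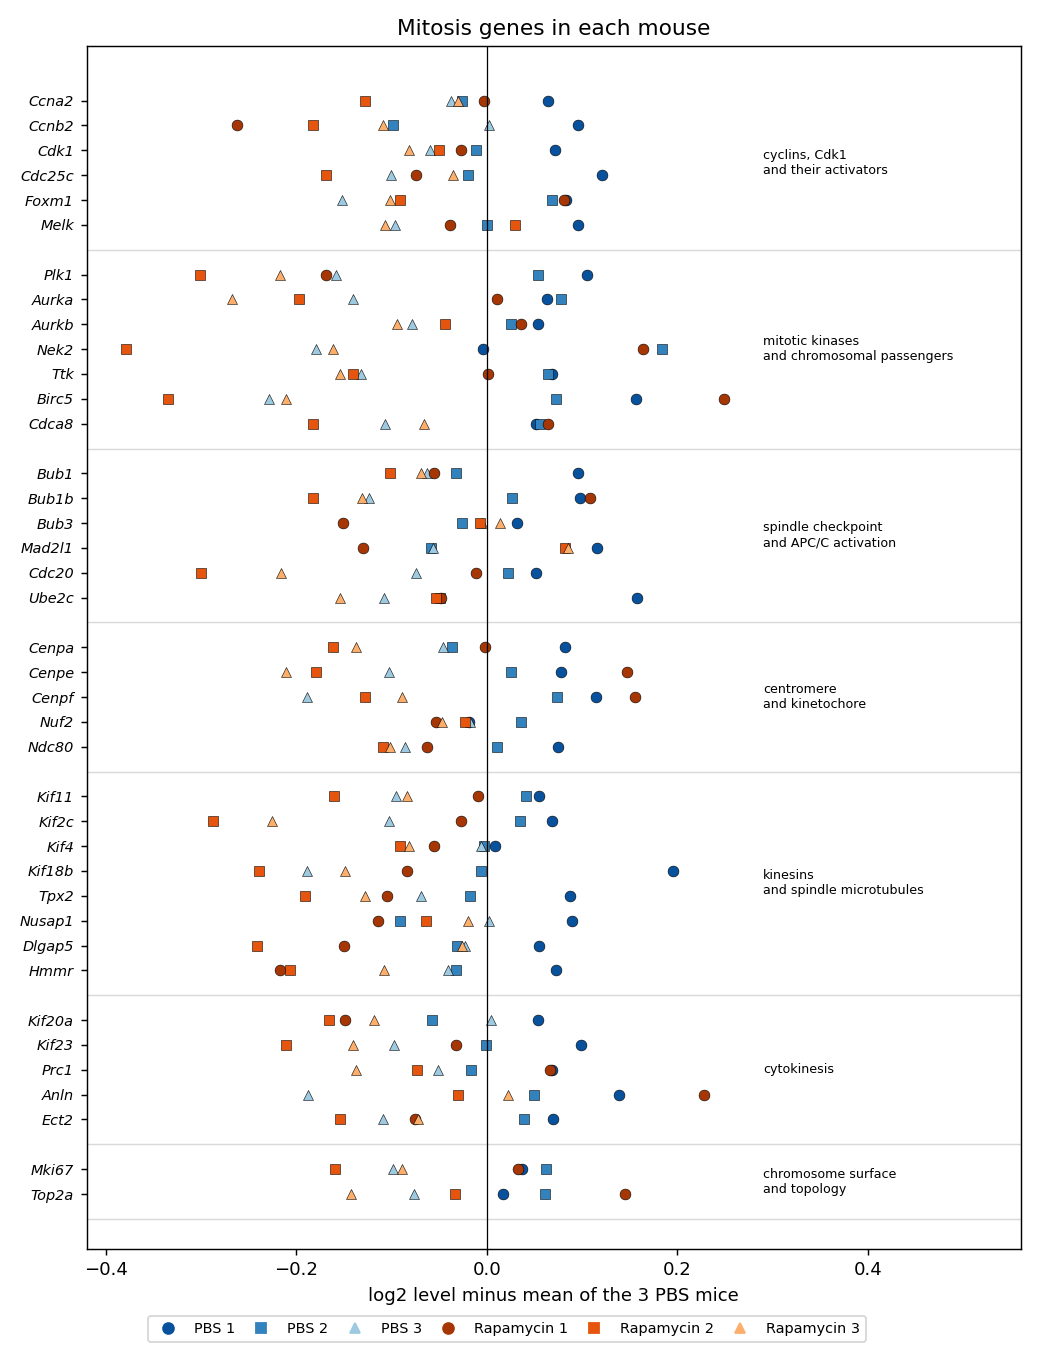
Level of each mitosis gene in each mouse as log2 units from the mean of the 3 PBS mice (x axis), with genes in rows grouped by role. Blue points are PBS mice and orange points rapamycin mice, with 1 array each and no error bars. PBS mouse 1 is the highest of the 6 in 28 of 39 genes and rapamycin mouse 2 the lowest in 21, while rapamycin mouse 1 spreads from -0.26 to 0.25.

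The mitosis genes also varied together between mice of the same group. PBS mouse 1 exceeded PBS mouse 3 in 38 of 39 genes, by a median of 0.16. Over all genes these 2 mice differed by a median of 0.00, and mouse 1 was the higher in 50.5%. Pairs of mice from different groups were as far apart or farther in some cases. PBS mouse 1 exceeded rapamycin mice 2 and 3 in 39 of 39 genes, by medians of 0.22 and 0.18. It exceeded rapamycin mouse 1 in 31, by 0.08. Over all genes PBS mouse 1 was higher than rapamycin mice 1, 2 and 3 in 50.3%, 50.8% and 52.5%. Such pairs of single mice are not a like measure to the group difference, which is taken between means of 3. Rapamycin mouse 1 exceeded rapamycin mouse 2 in 32 of 39, by a median of 0.13, and in 50.6% of all genes. In 33 of 39 genes the range over the 3 PBS mice was wider than the group difference. The same count was not made over all genes, so it does not set the mitosis genes apart. The mean over the 39 genes was 9.83, 9.76 and 9.66 in PBS mice 1 to 3 and 9.73, 9.61 and 9.64 in rapamycin mice 1 to 3, so rapamycin mouse 1 lay above PBS mouse 3. Rapamycin mouse 1 was above PBS mouse 3 in all but 11 of the 39 genes, whereas rapamycin mice 2 and 3 were below PBS mouse 3 in 30 and 25. Over all genes PBS mouse 3 was higher than rapamycin mice 1, 2 and 3 in 48.4%, 48.1% and 52.5%.

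Rapamycin mouse 1 stood apart over all genes too. Its array weight in limma, lower where values lie farther from the fit, was 0.471, against 0.865 to 1.45 for the other arrays. It correlated at 0.9963 with PBS mouse 2 over all genes, and at 0.9939 and 0.9934 with rapamycin mice 2 and 3. PBS mouse 3 also correlated slightly better with rapamycin mouse 2 (0.9962) than with PBS mice 1 and 2 (0.9956 and 0.9955). Rapamycin mouse 1 divided the mitosis genes. It lay above the PBS mean in 14 genes, among them Top2a, Birc5, Anln, Cenpe, Cenpf, Bub1b and Cdca8, in which it was the highest of all 6 mice. In the other 25 genes it lay below the PBS mean, and it was the lowest of all mice for Ccnb2, Hmmr, Nusap1, Bub3, Nuf2 and Mad2l1. The 7 genes without overlap all belong to these 25, which follows from how both are counted. By role, rapamycin mouse 1 averaged 9.64 over the mitotic kinases and passengers, within the PBS range of 9.44 to 9.66, but 9.66 over the kinesin and spindle genes, below the PBS range of 9.69 to 9.83.

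Leaving out single mice moved the counts. The median difference was -0.05 without PBS mouse 1 and -0.13 without PBS mouse 3. Without rapamycin mouse 1 it was -0.12, and 18 of 39 genes did not overlap, a larger share than the 24.1% of all genes. Without PBS mouse 3, 20 of 39 genes did not overlap, a larger share than the 19.5% of all genes, and all 39 differences were negative. With each of the other omissions 7 to 9 of 39 genes did not overlap, against 16.3% to 19.8% of all genes. The count at an unadjusted p of 0.05 was 0 without PBS mouse 1 or rapamycin mouse 2, against 3.34% of all genes in either fit. It was 1 without PBS mouse 2 (4.66% of all genes) or rapamycin mouse 3 (4.29%), and 4 of 39 without rapamycin mouse 1 (7.75%). No mitosis gene passed the adjusted threshold in any of 16 alternatives.

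**Figure D4:**
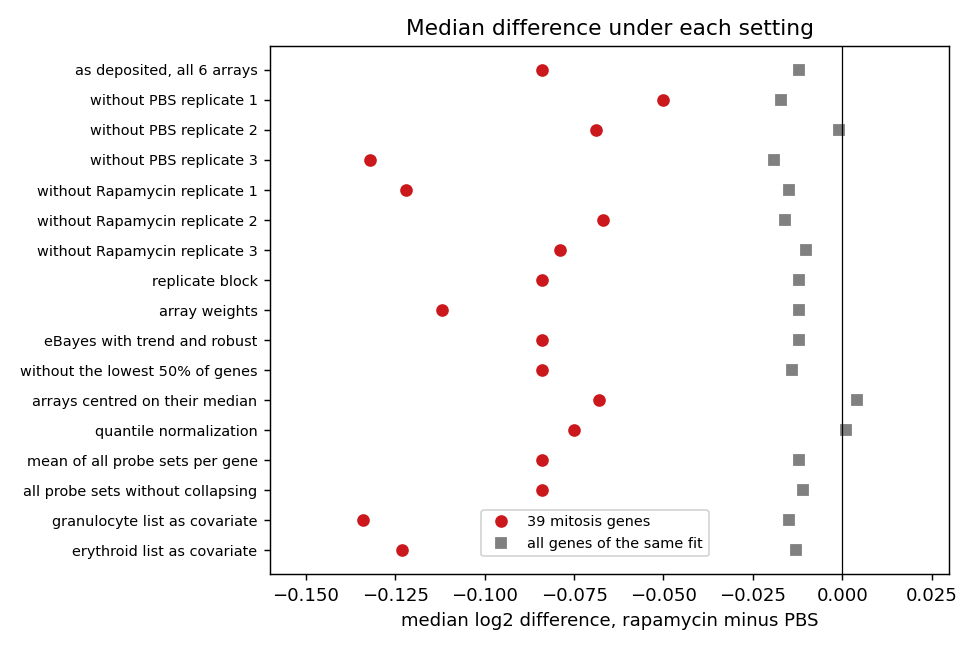
Median log2 difference, rapamycin minus PBS (x axis), of the 39 mitosis genes (circles) and of all genes in the same fit (squares), for all 6 arrays as deposited and for each of 16 alternatives (rows). The circles lie between -0.134 and -0.05, and the squares between -0.019 and 0.004.

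The mean level of granulocyte precursor and neutrophil markers moved with that of the mitosis genes within each group. The mean of the 18 measured genes was 9.08, 8.64 and 7.81 in PBS mice 1 to 3 and 9.45, 8.43 and 8.79 in rapamycin mice 1 to 3. In both groups the mice stood in the same order for this mean and for the mean of the mitosis genes. Single markers did not all keep that order. Elane, the neutrophil elastase made in granulocyte precursors, kept it, at 9.33, 8.40 and 8.01 with PBS and 9.45, 8.95 and 9.17 with rapamycin. Chil3, a chitinase-like protein of granulocytes, did not. It measured 12.06, 12.12 and 11.52 with PBS and 12.17, 12.30 and 13.08 with rapamycin, a difference of 0.62. Between the groups the markers went the other way from the mitosis genes, with 17 of 18 higher with rapamycin, a median difference of 0.45 and 0 members called. With the granulocyte mean as a covariate, the median difference of the mitosis genes was -0.13, and 8 of 39 had an unadjusted p under 0.05, all lower, against 7.81% of all genes. Plk1 then had a difference of -0.30 (SE 0.08, unadjusted p = 0.00521, adjusted p = 0.383 in limma). The part of granulocyte precursors in the mitosis values was not tested.

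**Figure D5:**
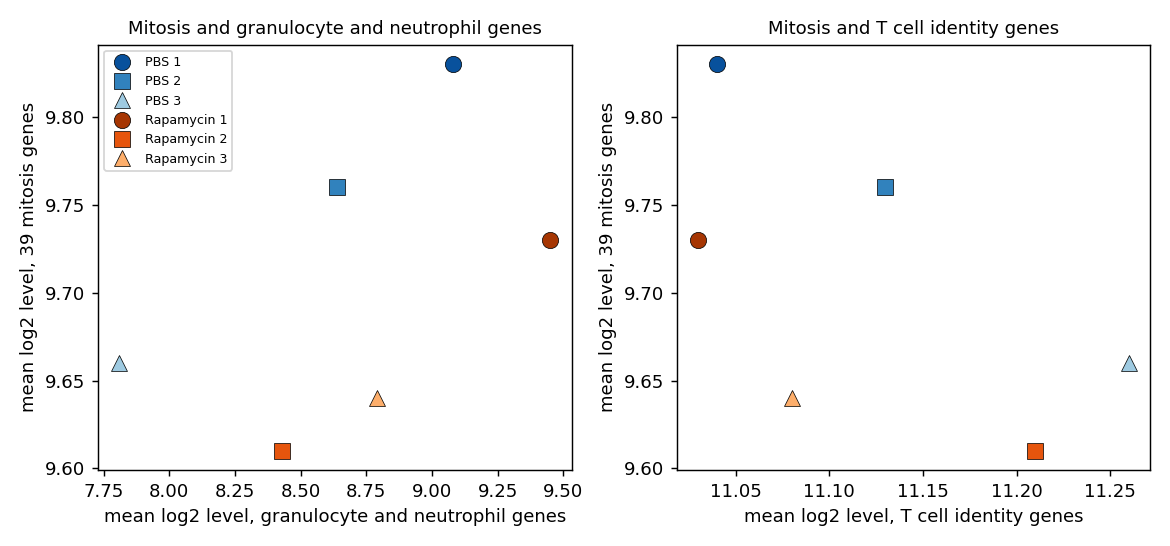
Mean log2 level of the 39 mitosis genes in each mouse (y axis) against the mean of 18 granulocyte and neutrophil genes (left, x axis) and of 13 T cell identity genes (right, x axis). Each point is 1 mouse. Within each group the mice stand in the same order for mitosis and granulocyte genes and in the reverse order for T cell identity genes. Rapamycin mouse 1 has the highest granulocyte mean, 9.45, and PBS mouse 3 the lowest, 7.81.

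The T cell identity genes, 13 of 15 measured, had means of 11.04, 11.13 and 11.26 in PBS mice 1 to 3 and 11.03, 11.21 and 11.08 in rapamycin mice 1 to 3. In both groups this is the reverse of the order of the mice for the mitosis genes. Of the 13 genes 9 were lower, with Cd5 at -0.19 and Cd8b1 at -0.13. Haematopoietic progenitor genes had means of 5.88, 5.77 and 5.64 with PBS and 5.84, 5.64 and 5.68 with rapamycin, the same order of mice as the mitosis genes in both groups. They were lower in 3 of 8, with Cd34 at -0.30 and Flt3 at -0.23. Erythroid genes, which can come from dividing precursors in the spleen, were higher in 11 of 14, with means of 6.16 to 6.46 with PBS and 6.26 to 6.48 with rapamycin. Klf1, an erythroid transcription factor, stayed between 5.63 and 5.72, below the array medians. Epb42 and Slc4a1, red cell membrane genes, differed by 0.31 and 0.45. Epb42 measured 5.39 to 5.49 with PBS and 5.42 to 6.05 with rapamycin. Slc4a1 lay above the array medians, at 7.31 to 8.15 with PBS and 7.86 to 8.69 with rapamycin. B and plasma cell genes were lower in 7 of 12, with means of 5.25 to 5.42 and 5.26 to 5.33, Cd79b at -0.54 and Jchain at -0.19. Macrophage and monocyte genes were lower in 8 of 12, with means of 8.87 to 9.24 and 8.56 to 9.09, Spic at -1.34 and Lyz2 at 0.29. Natural killer cell genes were lower in 5 of 8, with means of 6.80 to 7.27 and 6.78 to 7.07, Ncr1 at -0.24 and Itga2 at -0.65. In these 6 lists 0 genes were called, and their part in the mitosis values was not tested.

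Lists of other mitotic machinery had medians nearer to 0. Of 44 other spindle and kinetochore genes 31 were lower, with a median of -0.05 and 0 called. Of the 13 that were higher, Pbk, a mitotic kinase, had the smallest p. It measured 7.73, 7.80 and 7.64 with PBS and 8.06, 8.13 and 7.90 with rapamycin, without overlap. Its difference was 0.30 (SE 0.09, adjusted p = 0.97 in limma), and Mis12, a kinetochore scaffold, differed by 0.19. APC/C subunits and mitotic exit genes were lower in 12 of 17 (median -0.04, 0 called), with Cdc23 at -0.10 and Anapc2 at -0.07. Condensin and cohesin genes, which compact chromosomes and hold sisters together, were lower in 12 of 18 (median -0.02, 0 called), with the cohesin subunit Rad21 at -0.10 and Ncapg2 at -0.12.

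Genes that act before mitosis had medians close to 0. The 31 measured DNA replication genes, such as the MCM helicase, were lower in 15 and higher in 16, with a median of 0.00 and 0 called. Gins3 and Mcm10, factors of replication fork start, differed by -0.11 and -0.08. Genes of the G1 to S transition were lower in 6 of 15 (median 0.01, 0 called). E2f2, a transcription factor of S phase entry, measured 9.58, 9.52 and 9.45 with PBS and 9.43, 8.95 and 9.08 with rapamycin, without overlap, at a difference of -0.36 (SE 0.12, adjusted p = 0.982 in limma). Ccne1, the cyclin of S phase entry, differed by -0.11. Cell cycle brakes and DREAM complex genes were lower in 14 of 19 (median -0.04, 0 called). Cdkn1b, the CDK inhibitor p27, measured 9.31, 9.24 and 9.22 with PBS and 9.09, 9.11 and 9.15 with rapamycin, without overlap, a difference of -0.14 (SE 0.07), and Cdkn2a differed by -0.18. The difference between these lists and the mitosis genes was not tested.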

How the data were processed

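Per the labels' protocols, total RNA of sorted CD3+ splenocytes was extracted with Trizol and labelled for whole-transcript arrays. The deposited values are log2 expression that the authors made with Affymetrix Expression Console and RMA, per the submitters' processing notes. Versions and summary level: not given in the sources used here. RMA is made to take out changes common to most of an array, and it compresses low values. Small shifts between whole arrays remained in the deposited values, with array medians from 6.03 to 6.17. Of 35556 probe sets, 21789 name exactly 1 gene symbol in the platform's table. Symbols were checked by gene identifier against RefSeq (GRCm38.p6), with 21698 matched and 0 updated.

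Groups come from the sample titles, and no sample was left out. Genes were tested with limma 3.58.1 in R 4.3.3 (lmFit and eBayes, group only), with Benjamini-Hochberg adjustment over all 19938 genes and 8.44 degrees of freedom. The fit was tested on simulated data with known differences. The mitosis genes and the 13 other lists were chosen with earlier results of these data known. Full values are given for the 2 genes with the largest difference in each role, for Mki67, Top2a and Cdk1, for genes with an unadjusted p under 0.05, and for the 2 genes with the smallest p of each other list, some by difference only. Values of Tpx2, Kif4, Nuf2, Birc5 and Anln were added after they were seen, as were Cd3e, Ms4a1 and Klf1. Alternatives left out each mouse or changed weights, filter, scaling, probe set choice or covariates. Plots were made with matplotlib 3.10.9 (Python 3.11.15).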

Additional observations from a re-analysis of the deposited data

How the results depend on the processing

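The median difference of the mitosis genes stayed negative in all 16 alternatives, from -0.134 to -0.05, and 34 to 39 of the 39 genes were lower. No mitosis gene passed the adjusted threshold in any of them. Centring arrays on their medians changed the share of all genes that were lower from 55.3% to 48.3%, and 36 of 39 mitosis genes were lower there. Of the 39 mitosis genes, 2 had an unadjusted p under 0.05 in the fit of all arrays. In what follows, percentages in parentheses are shares of all genes, not of the mitosis genes. The count was 0 to 4 of 39 with a mouse left out (3.34% to 7.75%), 4 with array weights (7.43%) and 1 with median centring (3.64%). It was 1 with quantile normalization (4.7%), 8 of 39 with the granulocyte mean (7.81%) and 1 with the erythroid mean (4.16%) as covariate. The number of the 39 genes without overlap, 7, was 7 to 20 with a mouse left out (16.3% to 24.1% of all genes) and 5 with median centring (8.26%). It was 3 with quantile normalization, where the share of the mitosis genes lay below the 9.63% of all genes. Over all genes 1 passed, against 0 to 7 with a mouse left out, 3 with the granulocyte and 0 with the erythroid covariate. Of 240 values of 15 mitosis genes, 4 reversed, all for Top2a: 0.02, 0.00 and 0.06 without PBS replicate 2, rapamycin replicate 2 and rapamycin replicate 3 (range -0.09 to 0.06 over the mice left out), and 0.01 with median centring. The cause was not tested, beyond the smaller number of arrays where a mouse was left out.

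With the replicate number as a block, 0 genes passed, 1 mitosis gene had an unadjusted p under 0.05, against 4.97% of all genes, and the median difference was -0.084. No pairing by number was seen. Deviations of mice with the same number correlated at 0.09, -0.19 and 0.19 over all genes, and 1 of 3 rapamycin mice correlated best with its own number. With so few mice this cannot exclude a pairing, and the titles give only the numbers. With 3 arrays a group, differences of the size seen here are near the standard error of a single gene.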
